A study of Mus musculus with 11 samples.

Results

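The conjugating enzyme genes of the colon were compared between germ-free and humanized mice. Members were chosen by name, as genes of the glutathione S-transferases (GST, and the membrane-bound MGST), the UDP-glycosyltransferases (UGT), the sulfotransferases (SULT) and the N-acetyltransferases numbered Nat. Of 43346 genes in the count table, 71 had such a name, and 54 of these had at least 10 reads in at least 5 of 11 mice. The 9 Ugt1a genes share exons and were counted as 1 locus, which left 46 loci. RNA was sequenced from colon tissue of male Swiss Webster mice at 8 to 10 weeks of age, 5 of them germ-free and 6 of them humanized. The humanized mice were bred germ-free and were gavaged at 4 to 5 weeks with 300 μL of a suspension of human stool, which came from a single donor, so the humanized group stands for 1 human microbiota. The labels name no engineered allele and no drug in either group, and nothing in the labels links a mouse of one group to a mouse of the other.

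Conjugating enzymes attach a polar group to a drug, toxin, hormone or bile pigment, which makes the product easier to excrete. GSTs add glutathione, UGTs mostly add glucuronic acid, SULTs add sulfate and the arylamine N-acetyltransferases add an acetyl group, each from its own activated co-substrate. The colon epithelium meets such compounds from the lumen and from blood, and gut bacteria can remove several of these groups again with their own hydrolases.

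Between 49097005 and 64148538 reads per germ-free mouse and between 39125290 and 54219854 per humanized mouse were counted on genes. Markers of the tissue other than epithelium differed between the groups, and in bulk tissue fewer cells of a type and less RNA per cell cannot be told apart. All 10 smooth muscle markers were lower in humanized mice, with a summed level of 316 to 945 RPKM (read counts scaled to gene length and library size) in germ-free and 40.7 to 332 RPKM in humanized mice, as were 6 of 8 fibroblast markers (203 to 326 against 22.7 to 167 RPKM) and 7 of 8 markers of enteric neurons and glia (7.0 to 10.3 against 1.23 to 3.14 RPKM). Of 11 epithelial markers 2 were higher, and their sum was 3831 to 5306 RPKM in germ-free and 4407 to 6071 RPKM in humanized mice. Of 6 colonocyte markers 3 were higher (2929.6 to 4811 against 7548 to 13508 RPKM), as were 2 of 6 goblet cell markers and 2 of 5 immune markers tested. None of 5 endothelial, 4 small-intestinal, 3 liver or 1 distal-colon markers tested passed. The endothelial sum was still lower in humanized mice, without overlap (15.2 to 17.8 against 1.85 to 13.7 RPKM). The small-intestinal, liver and distal-colon sums overlapped between the groups. Of the acinar pancreas markers, 1 (Cela1) was higher, and Cpa1 and Pnlip had no read in any mouse. The part of these shifts in the results was not tested, but each class is also given below with libraries scaled to the 11 epithelial markers.

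Conjugating enzyme loci were more often higher in humanized mice than genes at large, and those higher were mostly GSTs. With edgeR's exact test and a false discovery rate (FDR) below 0.01, 19 of 46 loci (41.3%) were higher and none was lower, against 9.20% of all 19863 genes tested that were higher and 10.1% that were lower. At an FDR below 0.05, 22 loci were higher and 2 were lower, against 14.0% and 14.6% of all genes. The median log2-fold change (LFC, humanized over germ-free) was 0.29 over the 46 loci and 0.01 over all genes tested. In 16 loci the lowest humanized mouse lay above the highest germ-free mouse, which held for 8.67% of all genes, and in no locus did the highest humanized mouse lie below the lowest germ-free mouse, which held for 9.73% of all genes. All 54 members passed the low-count filter of the test, and 50 of them had at least 10 reads in every mouse, the exceptions being Ugt2b1, Sult5a1, Sult6b1 and Nat8, none of which was called.

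The classes differed in how many of their loci were called. Of 20 GST genes 12 were higher (median LFC 0.50), as were 2 of 3 MGST genes (median LFC 0.53), 2 of 9 UGT loci (0.12), 2 of 8 SULT genes (−0.02) and 1 of 6 NAT genes (0.03). No test of the difference between classes was made. Scaling to the epithelial markers in place of TMM lowered the LFC of all genes, from a median of 0.01 to −0.19. Under that scaling 4 GST genes (Gsta3, Gstm3, Gsta1 and Gstk1), Mgst1, Mgst3 and Ugt8a were still called, 7 of 46 loci against 2.76% of all genes higher, and no SULT or NAT gene and not the Ugt1a locus. Relative to the shifted median of all genes, the class medians were then 0.48 for GST, 0.51 for MGST, 0.09 for UGT, −0.03 for SULT and 0.03 for NAT.

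**Figure D1:**
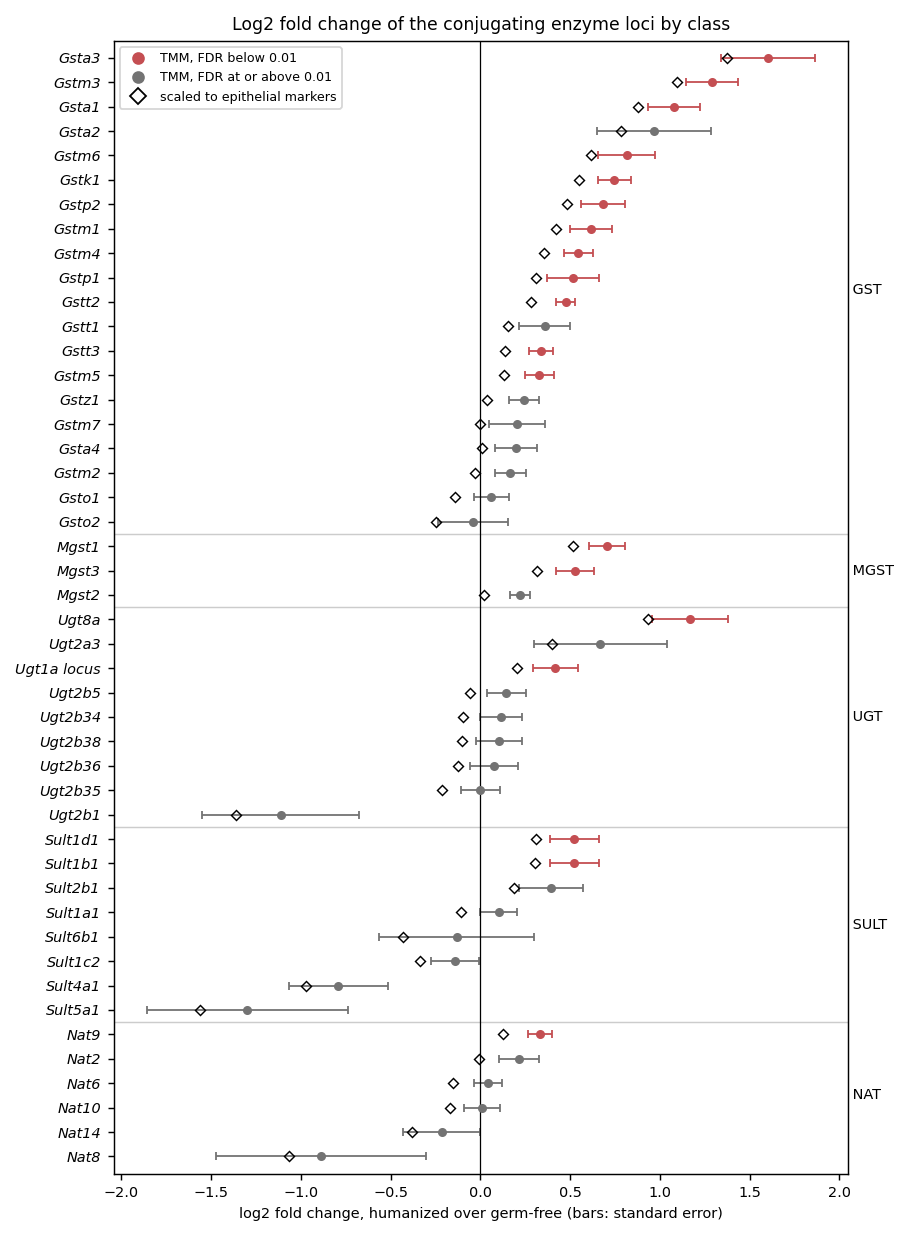
Log2 fold change of each of the 46 loci, grouped by class, with its standard error; filled red points passed an FDR below 0.01 in edgeR's exact test, grey points did not, and open diamonds give the value after scaling to epithelial markers. The 12 GST genes that passed lie between 0.33 and 1.60, and the diamonds lie to the left of the filled points throughout.

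Cytosolic GSTs form classes named by a letter, and the alpha and mu classes (Gsta, Gstm) conjugate lipid peroxidation products and many electrophilic drugs. Gsta3, an alpha-class transferase on chromosome 1 (21240589 to 21265661, plus strand, mm10), had the largest LFC of all members. It had 0.712, 0.347, 0.492, 0.719 and 0.481 RPKM in the 5 germ-free mice, and 0.998 at the lowest, 1.59 at the median and 2.34 RPKM at the highest in the 6 humanized mice. The groups did not overlap, although Gsta3 was among the low-level members in both. The LFC was 1.60 with a standard error of 0.26 (edgeR exact test, FDR = 5.88e-07; exact permutation test over mice, two-sided p = 0.00216, the smallest that 5 mice against 6 allow).

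Gstm3, a mu-class transferase on chromosome 3 (107963696 to 107969283, minus strand), moved from a higher level. Germ-free mice had 10.5, 12.8, 12.6, 12.6 and 14.3 RPKM, and humanized mice had 23.7 at the lowest, 29.4 at the median and 41.4 RPKM at the highest. Every humanized mouse was thus well above the highest germ-free mouse, and humanized mice 6 and 2 were the highest. The LFC was 1.29 with a standard error of 0.14 (edgeR exact test, FDR = 2.20e-14; exact permutation test, p = 0.00216). Of the 101-base windows in its transcripts, 13.5% also occur in another gene, so a small part of its reads cannot be assigned with certainty.

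Gsta1, another alpha-class gene on chromosome 9 (78230656 to 78242684, plus strand), had 7.55, 6.78, 8.41, 8.81 and 10.1 RPKM in germ-free mice and 13.7 to 21.7 RPKM, with a median of 16.7, in humanized mice. The groups were again apart (LFC 1.08, standard error 0.14, edgeR exact test, FDR = 4.33e-09; exact permutation test, p = 0.00216). Since 80.4% of its 101-base windows are shared with near-identical copies, its value is uncertain. The neighbouring Gsta2, with 28.2% of windows shared, had an LFC of 0.97 that did not pass (edgeR exact test, FDR = 0.0176).

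Gstm6, a mu-class gene on chromosome 3 (107938847 to 107943749, minus strand), had 2.03, 1.68, 1.88, 1.65 and 2.35 RPKM in germ-free mice and 2.53 to 3.84 RPKM, with a median of 3.74, in humanized mice. Its groups did not overlap, but the lowest humanized mouse, mouse 5, was close to the highest germ-free mouse. The LFC was 0.81 with a standard error of 0.16 (edgeR exact test, FDR = 0.000200; exact permutation test, p = 0.00433). It was not called with scaling to epithelial markers (LFC 0.62, edgeR exact test, FDR = 0.0320).

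Gsto1, an omega-class enzyme that reduces dehydroascorbate and mixed disulfides with glutathione, had the highest mean RPKM of the GST genes over all 11 mice and did not pass. In humanized mice alone the mean of Gstp1 was slightly higher (159.8 against 157.7 RPKM). It had 138, 153, 150.1, 148 and 166 RPKM in germ-free mice and 126 to 195 RPKM, with a median of 155, in humanized mice, and the groups overlapped fully (LFC 0.06, standard error 0.10, edgeR exact test, FDR = 0.725; exact permutation test, p = 0.641). Its LFC was −0.14 with scaling to epithelial markers. Its neighbour Gsto2 had an LFC of −0.04 and less than 1 RPKM in every mouse.

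Another 8 GST genes passed, all of them with smaller LFC, 3 of which (Gstm1, Gstm4 and Gstm5) are given below with their cluster. Gstk1, the kappa-class enzyme of mitochondria and peroxisomes, had a mean of 37.3 RPKM in germ-free and 62.6 RPKM in humanized mice (LFC 0.75). The pi-class genes Gstp1, with 112 and 160 RPKM (LFC 0.52), and Gstp2, with 43.4 and 69.8 RPKM (LFC 0.68), are near copies of each other, with 24.9% and 46.8% of windows shared. In Gstp1 the groups overlapped, with humanized mouse 3 at 112 RPKM inside the germ-free range of 105 to 123 RPKM, and its call was lost when germ-free mouse 1, 3, 4 or 5 or humanized mouse 1 or 2 was left out. The theta-class genes Gstt2 (18.9 and 26.3 RPKM, LFC 0.47) and Gstt3 (LFC 0.34) passed, and the adjacent Gstt1 did not (LFC 0.36, edgeR exact test, FDR = 0.105). Gstz1, the maleylacetoacetate isomerase of tyrosine breakdown, had an LFC of 0.24 (edgeR exact test, FDR = 0.0462), and Gsta4, which acts on hydroxynonenal, one of 0.20 (FDR = 0.242).

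The 7 mu-class genes lie in 1 cluster on chromosome 3, and their LFC values varied along it. In the order of the chromosome these were 0.33 for Gstm5, 0.20 for Gstm7, 0.81 for Gstm6, 1.29 for Gstm3, 0.17 for Gstm2, 0.62 for Gstm1 and 0.54 for Gstm4. Gstm7 and Gstm2 did not pass (edgeR exact test, FDR = 0.463 and 0.215), and the other 5 did. Gstm2, between Gstm3 and Gstm1 on the chromosome, had 27.8 ± 2.11 RPKM (SD, n = 5) in germ-free and 31.2 ± 3.82 RPKM (SD, n = 6) in humanized mice. Gstm1, the most abundant of the cluster, had 69.9 ± 1.67 RPKM (SD, n = 5) and 107 ± 20.3 RPKM (SD, n = 6). Gstm5 lost its call when any 1 mouse other than humanized mouse 3 or 5 was left out. No difference between neighbouring genes was itself tested.

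**Figure D2:**
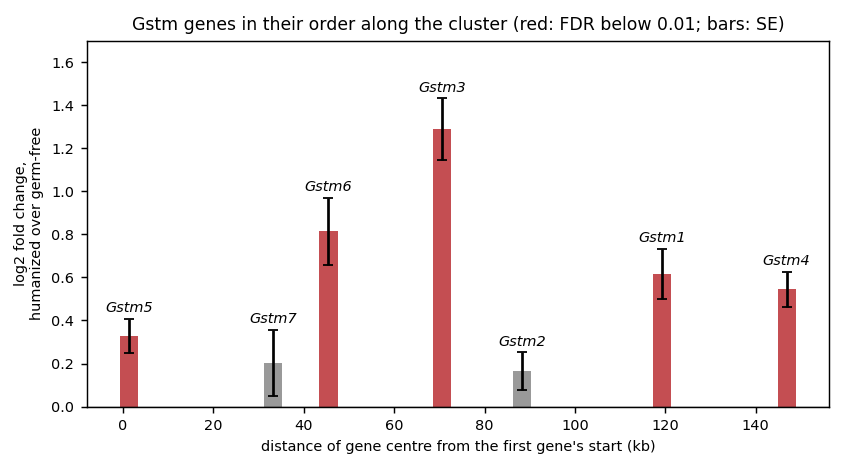
Log2 fold change of the 7 Gstm genes, with standard errors, against the distance of each gene's centre from the start of the first gene in kilobases; red bars passed an FDR below 0.01. Gstm3, at 1.29, stands highest, and grey bars (Gstm7 at 0.20 and Gstm2 at 0.17) lie between red ones.

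The MGST genes encode membrane proteins of the endoplasmic reticulum that use glutathione, Mgst1 against peroxides and electrophiles, and Mgst2 and Mgst3 also in the conjugation of leukotriene precursors. Mgst3, on chromosome 1 (167371966 to 167393841, minus strand), was the most abundant of them. It had 179, 198, 201, 193 and 217 RPKM in germ-free mice and 237 to 348 RPKM, with a median of 281, in humanized mice. The groups did not overlap, and humanized mice 5, 1 and 6 were the highest (LFC 0.53, standard error 0.11, edgeR exact test, FDR = 6.38e-05; exact permutation test, p = 0.00433).

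Mgst1, on chromosome 6 (138140316 to 138156755, plus strand), had 29.5, 38.7, 29.1, 36.7 and 36.4 RPKM in germ-free mice and 46.7 to 63.97 RPKM, with a median of 56.2, in humanized mice. All humanized mice were above all germ-free mice (LFC 0.71, standard error 0.10, edgeR exact test, FDR = 6.23e-09; exact permutation test, p = 0.00216). Mgst2 was also apart in the groups, with a small LFC of 0.22 that missed the threshold (edgeR exact test, FDR = 0.0113).

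**Figure D3:**
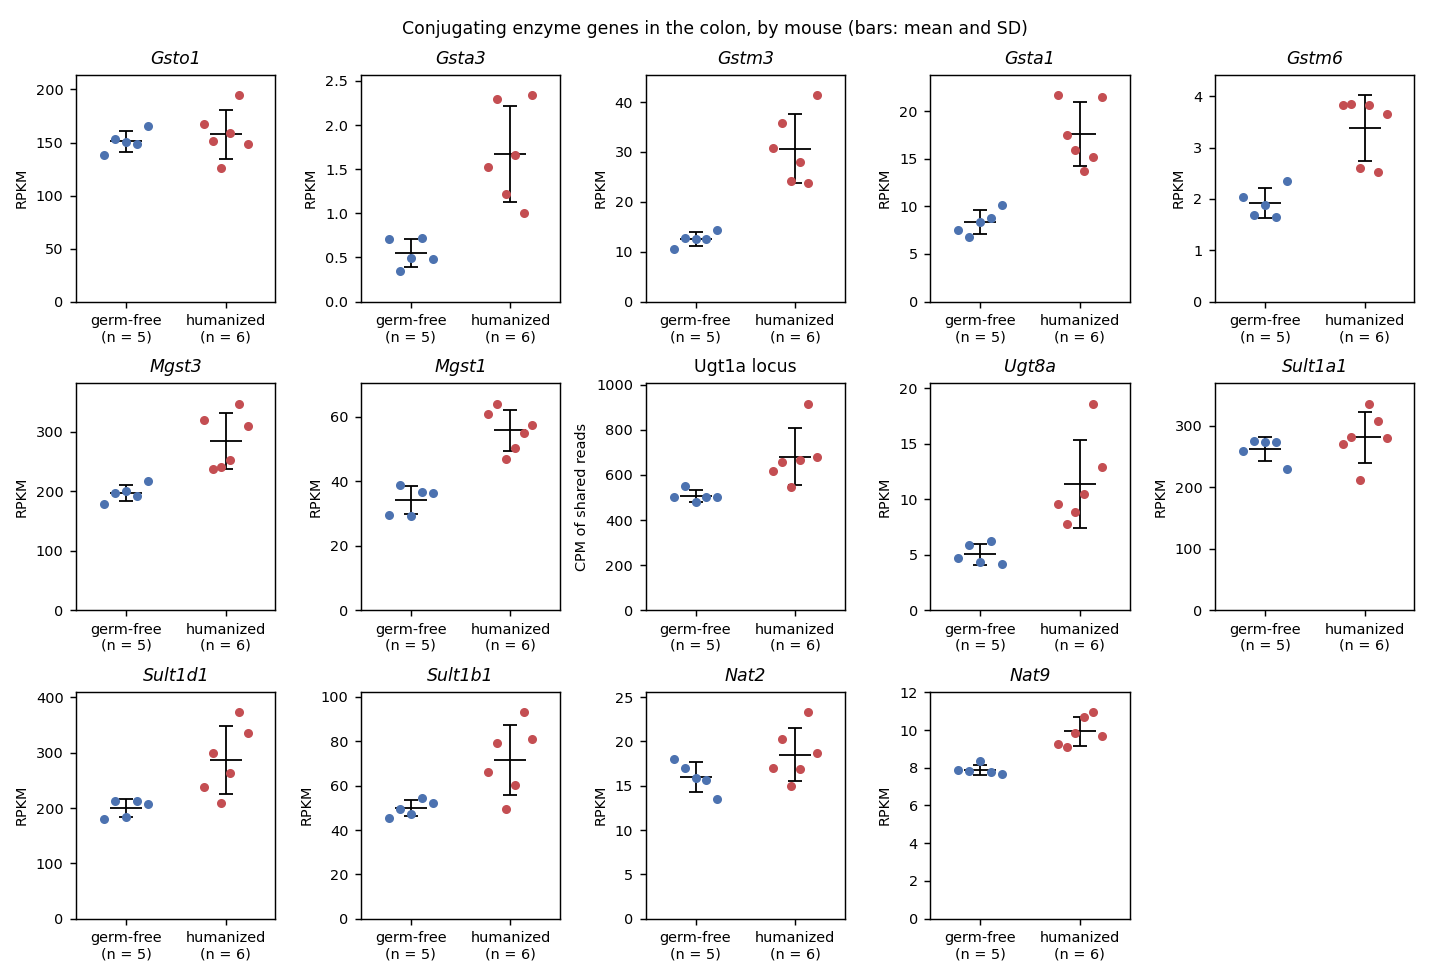
Level of the 14 conjugating enzyme loci given mouse by mouse, in RPKM, or for the Ugt1a locus in CPM (counts scaled to library size) of the lowest Ugt1a count; each point is 1 mouse, and bars give the mean and SD of 5 germ-free and 6 humanized mice. Points of the groups are apart for Gsta3, Gstm3, Gsta1, Gstm6, Mgst3, Mgst1, Ugt8a and Nat9, and overlap for Gsto1, the Ugt1a locus, Sult1a1, Sult1d1, Sult1b1 and Nat2.

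GST and MGST genes are known targets of Nrf2, a transcription factor freed by electrophiles that binds the antioxidant response element, whose core reads TGACNNNGC. Of 9 other Nrf2 targets listed, 8 were higher in humanized mice, against 9.20% of all genes, with a median LFC of 0.49. Among the higher ones were Hmox1 (heme oxygenase, LFC 1.37) and Nqo1 (quinone reductase, LFC 0.73). Slc7a11, with a mean of 0.189 RPKM in germ-free and 0.168 RPKM in humanized mice, had an LFC of −0.17 (edgeR exact test, FDR = 0.729). With scaling to epithelial markers 2 of the 9, Hmox1 and Nqo1, were still called, against 2.76% of all genes higher. The transcripts of Nrf2 itself (Nfe2l2, LFC 0.12) and of its inhibitor Keap1 (LFC 0.09) did not pass.

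To show what lies at the start of these genes, promoter windows of 300 bases (250 before and 50 after a RefSeq start, GRCm38.p6) were searched on both strands for that core. It was found in 12.4% of all 32851 windows and in 4 of 64 windows (6.25%) of the 48 members with an entry, those of Gsta3, Gstm5, Gstm7 and Mgst1. With the Ugt1a genes counted singly and not as 1 locus, it was found in 3 of 33 windows (9.09%) of the members that were higher. The AhR-binding core TNGCGTG was found in 5.07% of all windows and in 3 of the 64 (Ugt1a5, Sult1d1 and Gsta2), and the HNF4 site CAAAGTCCA in 0.475% and in 2 (Sult1b1 and Nat8). No member window held more than 1 of these motifs, and a match or its absence in these 300 bases is a description only. The windows of the 3 GST genes with the largest LFC, of Mgst1, which holds the core, and of Ugt1a1, whose first exon is taken up with its locus, are printed 5′ to 3′ on the strand of the gene, with the TGACNNNGC core in capitals on whichever strand it lies. They lie at chr1:21240335-21240634 (plus strand) for Gsta3, chr3:107969125-107969424 (minus strand) for Gstm3, chr9:78230419-78230718 (plus strand) for Gsta1, chr6:138140277-138140576 (plus strand) for Mgst1 and chr1:88211709-88212008 (plus strand) for Ugt1a1.
Gsta3: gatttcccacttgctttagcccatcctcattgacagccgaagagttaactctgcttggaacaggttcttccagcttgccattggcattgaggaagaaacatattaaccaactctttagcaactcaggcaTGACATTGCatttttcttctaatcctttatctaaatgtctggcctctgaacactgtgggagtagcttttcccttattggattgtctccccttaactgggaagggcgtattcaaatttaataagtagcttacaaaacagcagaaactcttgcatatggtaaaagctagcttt
Gstm3: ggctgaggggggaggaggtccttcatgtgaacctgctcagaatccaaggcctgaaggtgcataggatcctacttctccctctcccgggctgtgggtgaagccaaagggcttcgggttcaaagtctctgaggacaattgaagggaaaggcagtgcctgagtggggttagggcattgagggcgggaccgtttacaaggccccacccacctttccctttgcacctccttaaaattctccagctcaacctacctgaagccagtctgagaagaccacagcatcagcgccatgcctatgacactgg
Gsta1: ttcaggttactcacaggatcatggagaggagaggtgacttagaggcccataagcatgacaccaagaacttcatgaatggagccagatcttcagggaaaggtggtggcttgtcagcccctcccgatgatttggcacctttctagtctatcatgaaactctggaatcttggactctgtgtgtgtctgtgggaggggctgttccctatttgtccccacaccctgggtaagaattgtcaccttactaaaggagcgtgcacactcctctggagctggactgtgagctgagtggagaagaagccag
Mgst1: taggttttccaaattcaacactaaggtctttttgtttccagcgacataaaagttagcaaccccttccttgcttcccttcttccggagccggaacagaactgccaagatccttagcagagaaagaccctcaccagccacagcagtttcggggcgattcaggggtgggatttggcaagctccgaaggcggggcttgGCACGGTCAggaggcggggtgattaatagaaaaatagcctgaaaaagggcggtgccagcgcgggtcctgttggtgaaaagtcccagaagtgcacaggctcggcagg
Ugt1a1: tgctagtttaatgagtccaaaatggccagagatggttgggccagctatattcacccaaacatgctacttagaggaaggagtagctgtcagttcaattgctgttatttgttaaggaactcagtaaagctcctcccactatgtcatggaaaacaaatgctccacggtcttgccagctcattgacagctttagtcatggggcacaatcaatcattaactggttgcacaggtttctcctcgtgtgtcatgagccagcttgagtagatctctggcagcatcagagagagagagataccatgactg
The core starts 121 bases before the start site in Gsta3 and, on the opposite strand, 56 bases before it in Mgst1. The windows of Gstm3, Gsta1 and Ugt1a1 hold none.

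Ugt1a enzymes glucuronidate phenols, drugs and, in the case of Ugt1a1, bilirubin. The locus lies on chromosome 1 (88055388 to 88220002, plus strand), where each gene has its own first exon joined to the same later exons, 1311 bases of which are common to all 9 genes. The lowest of the 9 deposited counts in every mouse was that of Ugt1a5, and it made up 75.1% to 85.5% of the count of Ugt1a1, 76.7% to 82.9% of that of Ugt1a7c and at least 92.5% of that of each other gene, so a read on the common exons was evidently counted for all of them. That lowest count, which holds the common reads and any on the Ugt1a5 first exon, is therefore given as the level of the locus and called the shared reads.

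The Ugt1a locus was higher in humanized mice, and the groups overlapped. The shared reads came to 502, 551, 478, 500.3 and 502 CPM (counts scaled to library size) in germ-free mice and to 545 to 916 CPM in humanized mice, with humanized mouse 3 at 545 CPM inside the germ-free range and mouse 5 the highest. With the counts of all Ugt1a genes summed to 1 row, the LFC was 0.42 with a standard error of 0.12 (edgeR exact test, FDR = 0.00298; exact permutation test, p = 0.00649), in a table where 9.18% of genes were higher. The FDR was above 0.01 when germ-free mouse 1, 3, 4 or 5 was left out (0.0124 to 0.0166) and with edgeR's quasi-likelihood test (0.0244). Its LFC was 0.31 without humanized mouse 5 and 0.20 with scaling to epithelial markers (FDR = 0.216).

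The excess of each gene's count over the lowest Ugt1a count did not follow the locus in every gene. In the annotation, the bases of Ugt1a1 outside the common exons are the 913 bases of its first exon, which no other Ugt1a gene has. Ugt1a7c, Ugt1a6a and Ugt1a6b have 1915, 2142 and 938 bases of their own and 993, 859 and 133 bases that some but not all Ugt1a genes have, so their excess can hold reads counted for more than 1 gene. Where the reads lie within these bases was not measured here. For Ugt1a1 the excess numbered 9779, 8820, 9242, 9811 and 10253 reads in germ-free mice, or 147 to 169 CPM, and 4505 to 10562 reads in humanized mice, or 107 to 222 CPM. Humanized mouse 5 held the high value, and the other 5 humanized mice, at 107 to 139 CPM, were all below the germ-free mice. The LFC of the Ugt1a1 excess was −0.18 with a standard error of 0.16 and did not pass (edgeR exact test, FDR = 0.455). The excess of Ugt1a6a (LFC 0.71), Ugt1a6b (0.77) and Ugt1a7c (0.58), which act mainly on phenols and drugs, was higher in humanized mice and in each the groups were apart, against 9.19% of genes higher in the same table. These 3 calls also held with scaling to epithelial markers.

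As a share of the Ugt1a1 count, which needs no scaling of libraries, the excess was 23.6%, 23.4%, 24.9%, 23.9% and 22.6% in germ-free mice and 14.5% to 19.5%, with a mean of 16.7% ± 1.88 (SD, n = 6), in humanized mice. Every humanized mouse, mouse 5 included, was below every germ-free mouse (exact permutation test on the log ratio to the shared reads, two-sided p = 0.00216; 0.0173 after Benjamini–Hochberg adjustment over the 8 genes with an excess). No adjusted value over these 8 shares was below 0.01. The mean share was 2.12% in germ-free and 2.68% in humanized mice for Ugt1a6b (exact permutation test, adjusted p = 0.0433), 5.40% and 6.61% for Ugt1a6a (adjusted p = 0.0866) and 19.1% and 21.0% for Ugt1a7c (adjusted p = 0.0952), with overlapping groups in each. For Ugt1a8, Ugt1a9 and Ugt1a10 the excess was 2.42%, 1.65% and 0.498% of the count in germ-free and 2.43%, 1.32% and 0.572% in humanized mice. Of the 913 bases of the Ugt1a1 first exon, 528 also lie in an exon of Gm20528 on the other strand, and without strand its reads and those of Ugt1a1 cannot be told apart. These excess counts were looked at after the data had been seen.

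**Figure D4:**
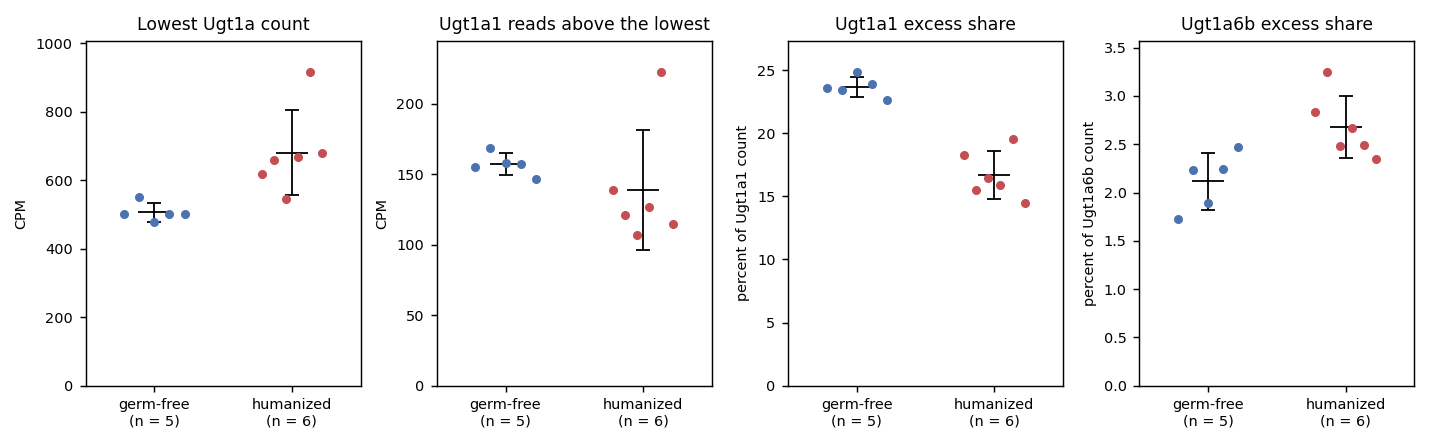
Reads of the Ugt1a locus by mouse: the lowest Ugt1a count in CPM, the excess of the Ugt1a1 count over it in CPM, and the excess as a share of the Ugt1a1 and of the Ugt1a6b count, in percent; bars give the mean and SD of 5 germ-free and 6 humanized mice. The shared reads of most humanized mice lie above the germ-free mice, while the excess share of Ugt1a1 is 22.6% to 24.9% in germ-free mice and 14.5% to 19.5% in humanized mice.

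Ugt8a, the other UGT locus that passed, is no drug-metabolizing enzyme: it transfers galactose to ceramide in the synthesis of galactosylceramide. It lies on chromosome 3 (125865359 to 125938550, minus strand) and had 4.68, 5.88, 4.34, 6.20 and 4.12 RPKM in germ-free mice and 7.80 to 18.6 RPKM, with a median of 9.99, in humanized mice. The groups did not overlap, and humanized mice 5 and 6 were the highest (LFC 1.17, standard error 0.21, edgeR exact test, FDR = 2.01e-06; exact permutation test, p = 0.00216).

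The Ugt2b genes, which glucuronidate steroids, bile acids and drugs, did not pass. Ugt2b34, the most abundant of them, had 195 ± 10.5 RPKM (SD, n = 5) in germ-free and 211 ± 39.5 RPKM (SD, n = 6) in humanized mice, and its LFC of 0.12 had a standard error of 0.12. Ugt2b5, Ugt2b35, Ugt2b36 and Ugt2b38 had LFC values from 0.00 to 0.15. Ugt2b1, with less than 0.6 RPKM in every mouse, had an LFC of −1.11 (edgeR exact test, FDR = 0.0461). Ugt2a3 had 0.928 to 1.46 RPKM in 5 humanized mice and 4.32 RPKM in humanized mouse 6 (LFC 0.67, edgeR exact test, FDR = 0.206). In 6 of the 9 UGT loci humanized mouse 5 was the highest of its group, and in 6 humanized mouse 3 was the lowest.

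Among the SULT genes, those next to each other on chromosome 5 passed, and Sult1a1, with the highest mean RPKM over all 11 mice, did not. Sult1d1, which sulfates catecholamines and other phenols (87554645 to 87569027, minus strand), had 180.2, 213, 183, 214 and 207 RPKM in germ-free mice and 208 to 373 RPKM, with a median of 281, in humanized mice. Its neighbour Sult1b1, which sulfates thyroid hormone and phenols (87513339 to 87538195, minus strand), had 45.5, 49.6, 47.3, 54.4 and 52.2 RPKM and 49.4 to 93.1 RPKM, with a median of 72.8. In both, the other humanized mice were above the germ-free mice, and mouse 3 lay inside their range. The LFC was 0.52 with a standard error of 0.14 for each (edgeR exact test, FDR = 0.00170 for Sult1d1 and 0.00210 for Sult1b1; exact permutation test, p = 0.0152 for each). Neither was called by edgeR's quasi-likelihood test (FDR = 0.0139 and 0.0143), without germ-free mouse 1 or 3 (0.0115 to 0.0131), or with scaling to epithelial markers (LFC 0.31 for both), and Sult1b1 not without germ-free mouse 2.

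Sult1a1, a phenol sulfotransferase on chromosome 7 (126672865 to 126676432, minus strand), had 259.5, 275, 273, 274 and 229.6 RPKM in germ-free mice and 212 to 336 RPKM, with a median of 281, in humanized mice. The groups overlapped fully (LFC 0.10, standard error 0.10, edgeR exact test, FDR = 0.548; exact permutation test, p = 0.435). Sult1c2 had 68.6 ± 3.49 RPKM (SD, n = 5) in germ-free and 62.2 ± 13.1 RPKM (SD, n = 6) in humanized mice (LFC −0.14), with humanized mouse 6 the lowest at 40.2 RPKM. Sult2b1, which sulfates cholesterol, had an LFC of 0.39 (edgeR exact test, FDR = 0.106). Sult4a1, known mainly from brain, had less than 0.8 RPKM in every mouse and an LFC of −0.79 (FDR = 0.0313), beside the lower neuronal marker Elavl4 (LFC −2.44), whose part in it was not tested. Sult6b1 and Sult5a1 had less than 0.5 RPKM in every mouse. The 10 SULT genes below the read minimum, among them Sult1e1 and all Sult2a genes, had at most 22 reads in any mouse.

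Most genes named Nat are not arylamine N-acetyltransferases. Nat2, which is one (chromosome 8, 67494867 to 67502580, plus strand), had 17.98, 16.9, 15.8, 15.7 and 13.4 RPKM in germ-free mice and 15.0 to 23.3 RPKM, with a median of 17.8, in humanized mice. These groups overlapped (LFC 0.21, standard error 0.11, edgeR exact test, FDR = 0.206; exact permutation test, p = 0.132). The other arylamine genes, Nat1 and Nat3, had at most 19 and 27 reads in any mouse and were below the minimum.

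Nat9, named for its resemblance to protein N-acetyltransferases, was the NAT gene that passed (chromosome 11, 115182832 to 115187859, minus strand). It had 7.89, 7.82, 8.34, 7.78 and 7.66 RPKM in germ-free mice and 9.08 to 10.9 RPKM, with a median of 9.77, in humanized mice. The groups were apart by a small step (LFC 0.33, standard error 0.07, edgeR exact test, FDR = 0.00276; exact permutation test, p = 0.00216). It was not called without germ-free mouse 1, 2, 4 or 5 or humanized mouse 4 (FDR = 0.0110 to 0.0161), nor with scaling to epithelial markers (LFC 0.13, FDR = 0.580). Nat8, which acetylates cysteine conjugates in the last step to mercapturates, had at most 0.510 RPKM, and Nat6, which acetylates actin, Nat10, which acetylates RNA, and Nat14 had LFC values from −0.22 to 0.04.

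Genes of co-substrate supply were also read from a list. Of 12 such genes tested, 8 were higher and none was lower, against 9.20% and 10.1% of all genes, with a median LFC of 0.41. This list, like the other gene lists used here, was chosen with earlier results of these data known. The share is therefore no independent support. All 4 glutathione genes passed: Gclc and Gclm, the subunits of the rate-limiting ligase (LFC 0.41 and 0.49), the synthetase Gss (0.46) and the reductase Gsr (0.32). For UDP-glucuronate Ugp2 (LFC 0.43) and Ugdh (0.40) passed, the latter with 133 RPKM in germ-free and 176 RPKM in humanized mice, and the transporter Slc35d1 (0.46, edgeR exact test, FDR = 0.0122) did not. For the sulfate donor PAPS, the synthase Papss2 (LFC 0.53, 166 and 238 RPKM) and the phosphatase Bpnt1 (0.26) passed, and Papss1 did not (0.10). Acly and Acss2, which make acetyl-CoA, had LFC values of −0.05 and 0.08. None of the 12 was called with scaling to epithelial markers, and 5 were with edgeR's quasi-likelihood test.

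Of 13 genes tested that process glutathione conjugates to mercapturates, 2 were higher and 2 were lower, not far from the 9.20% and 10.1% of all genes. Ggt1, the glutamyltransferase that opens the path, was higher (4.24 and 12.4 RPKM, LFC 1.55) although the groups overlapped, as was the aminopeptidase Lap3 (LFC 0.60). The dipeptidase Cndp2, which splits cysteinylglycine, was lower (75.3 and 47.1 RPKM, LFC −0.68), as was the cysteine conjugate lyase Ccbl1 (LFC −0.42). These 4 calls also held with scaling to epithelial markers. Since that scaling lowers the LFC of genes at large, it made those of the lower genes more negative (−0.90 for Cndp2 and −0.62 for Ccbl1). Of 6 transporters that export conjugates, against the same 9.20% of all genes higher, Abcc3 (38.5 and 66.4 RPKM, LFC 0.79) and Abcg2 (15.7 and 26.1 RPKM, LFC 0.73) were higher. In Abcg2 the groups overlapped, and it was not called with scaling to epithelial markers (LFC 0.49, edgeR exact test, FDR = 0.0247) or by edgeR's quasi-likelihood test (FDR = 0.0255). Among 3 enzymes tested that remove sugar or sulfate groups, the sulfatase Arsb was lower (LFC −0.32) and Gusb, the host's glucuronidase, had an LFC of −0.05. Arsb was not called by edgeR's quasi-likelihood test (FDR = 0.0111).

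Of 10 regulators of these genes, the xenobiotic receptors Nr1i2 (PXR, LFC 0.36) and Nr1i3 (CAR, LFC 0.34) and the hepatocyte factor Hnf4a (LFC 0.43, 150.4 and 202 RPKM) were higher, against 9.20% of all genes, and none was with scaling to epithelial markers. Nr1i2 was not called by edgeR's quasi-likelihood test (FDR = 0.0210). Of 5 targets of the aryl hydrocarbon receptor, Nqo1 alone was higher (against 9.20% of all genes), a gene that Nrf2 also controls. Cyp1a1 was at a low level, with 8 to 63 reads per mouse and means of 0.308 RPKM in germ-free and 0.161 RPKM in humanized mice. Its LFC was −0.93 (edgeR exact test, FDR = 0.0337). Ahr itself had an LFC of −0.23 (FDR = 0.0377).

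**Figure D5:**
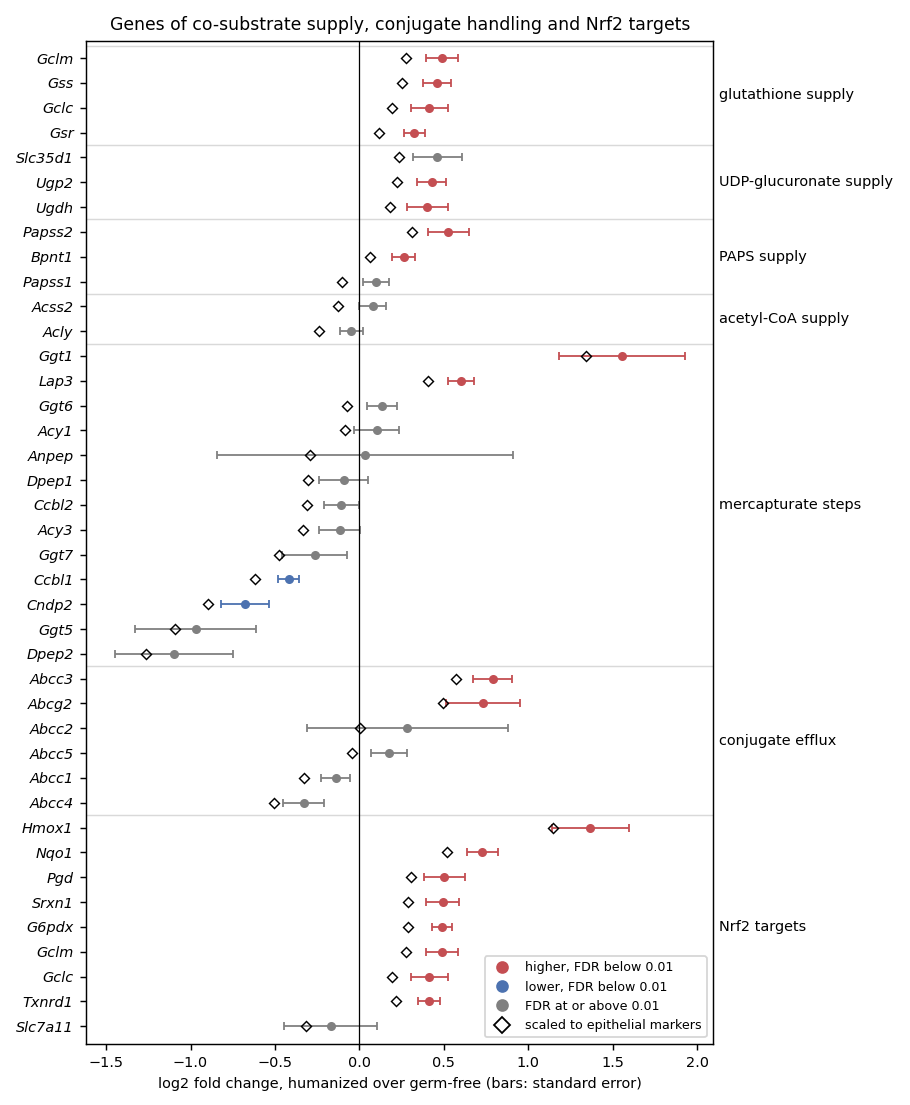
Log2 fold change, with its standard error, of genes of co-substrate supply, mercapturate formation, conjugate efflux and Nrf2 targets; red and blue points passed an FDR below 0.01 as higher or lower, grey points did not, and open diamonds give the value after scaling to epithelial markers. Gclc and Gclm appear in both the glutathione and the Nrf2 group; Ggt1 (1.55) and Hmox1 (1.37) lie farthest right, and Cndp2 (−0.68) is the lowest point that passed.

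Summed over the members of a class, GST genes came to 847 ± 33.9 CPM (SD, n = 5) in germ-free and 1093 ± 99.8 CPM (SD, n = 6) in humanized mice, and MGST genes to 436 ± 20.7 and 601 ± 60.2 CPM. With TMM the ranges of the groups did not overlap for GST (814 to 885 against 912 to 1191 CPM), for MGST (415 to 461 against 528 to 675 CPM) or for NAT (73.4 to 77.6 against 80.3 to 86.9 CPM). They overlapped for UGT, with Ugt1a entered once (1374 to 1533 against 1362 to 2314 CPM), and for SULT (1109 to 1229 against 1096 to 1803 CPM). With scaling to epithelial markers the ranges overlapped in all 5 classes, the GST total being 916 ± 85.7 CPM (SD, n = 5) in germ-free and 1028 ± 122 CPM (SD, n = 6) in humanized mice, and the mean NAT total was then 82.3 CPM in germ-free and 79.1 CPM in humanized mice. Humanized mice varied more among themselves than germ-free mice, with a median coefficient of variation of 18.01% against 9.98% over the 46 loci and of 16.5% against 10.4% over all genes tested. Humanized mouse 3 had the lowest value of its group in 18 of 46 loci and the highest in 3. It also had the lowest summed epithelial and the highest summed fibroblast and endothelial markers of the humanized mice. Humanized mouse 5 was the highest in 13 loci and the lowest in 9, and had the lowest smooth muscle, fibroblast and neuronal sums. Mouse 6, the highest in 11 and the lowest in 5, had the highest epithelial, colonocyte, small-intestinal and smooth muscle marker sums. The part of these marker levels in the values of single mice was not tested.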

How the data were processed

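Colon RNA of 5 germ-free and 6 humanized male mice was sequenced as 101 bp paired reads. The authors aligned the reads to mm10, counted reads per gene with featureCounts (Subread 1.4.6-p5 and TopHat2 2.1.0 are named in the submitters' processing notes), and deposited raw counts of 43346 genes without normalization, with a position and a length per gene. The counting option for reads that overlap several genes, and any use of strand, is not given in the sources used here. The length equals the exonic length in the GENCODE M21 annotation for 37 of the 54 members. Group labels came from the sample titles. Neither labels nor methods name a batch. The p-values set the difference between the groups against the spread between these mice, and do not cover variation between donors.

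The edgeR package (4.0.16, under R 4.3.3) was applied as in the study's methods: 19863 genes kept by filterByExpr at its defaults, TMM normalization, estimateDisp, the exact test, and Benjamini–Hochberg adjustment over all genes at FDR below 0.01. Standard errors came from the quasi-likelihood fit, and RPKM from TMM-scaled libraries and the deposited lengths. For single genes, mean log2 CPM (prior count 2) was compared by exact permutation over all 462 splits of the mice. Ugt1a counts were summed to 1 row before the filter for the locus. Values by mouse are given for the most abundant member of each class and for the 4 with the largest absolute LFC per class among those passing with a mean of at least 1 CPM, promoters for some of these. The members and gene lists (co-substrate, mercapturate, deconjugation, efflux, regulator, Nrf2, AhR and tissue marker lists) were chosen with earlier results of these data known. Alternatives were the quasi-likelihood test, DESeq2 1.42.0, other scalings and filters, other thresholds, leaving out mice and a replicate block. The tests were first tried on simulated data. The 4 members with fewer than 10 reads in some mouse have the least precise values.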

Additional observations from a re-analysis of the deposited data

Results flagged for a closer look

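A mouse far from the rest of its group was looked for in 46 loci in each group, 92 groups of values in all, of which chance flags about 1 in 20. Only 2 were found. Humanized mouse 6 had 4.32 RPKM of Ugt2a3, from 458 reads, where the other humanized mice had 0.928 to 1.46 RPKM. Humanized mouse 5 had 916 CPM of the reads shared by the Ugt1a genes, where the other humanized mice had 545 to 679 CPM.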

How the results depend on the processing

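Calls at FDR below 0.01 were remade under each alternative. DESeq2's Wald test, RLE and upper-quartile factors, no filter, 10 counts in every mouse and 10 counts in 5 of 11 mice gave 18 to 20 members higher, against 19. Gstm3, Gsta1 and Mgst1 kept their calls in the 23 alternatives that set no limit on LFC (other tests, scalings, filters, FDR below 0.05, mice left out and the replicate block), with LFC from 1.09 to 1.35, 0.88 to 1.16 and 0.51 to 0.75.

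edgeR's quasi-likelihood test left 15 members higher, without Sult1b1, Sult1d1, Gstp1 and the Ugt1a locus (LFC 0.42), and so 1 UGT locus and 0 SULT genes, with 5 co-substrate genes. With total counts in place of TMM, 11 members were higher and 1 lower (Sult4a1), with 1 UGT, 0 SULT, 0 NAT and 1 co-substrate genes higher, 7 of the genes given by mouse called, Ugt1a at 0.22, Gsto1 reversed to −0.13 and Sult1a1 to −0.085, while the median of all genes was −0.18. With epithelial scaling, 7 members were higher, 6 GST or MGST genes, 1 UGT locus, 0 SULT, NAT or co-substrate genes and 6 genes given by mouse, with Ugt1a at 0.20, Gsto1 at −0.14, Sult1a1 at −0.11 and Nat2 at −0.0093. At FDR below 0.05, 2 members were lower (Ugt2b1 and Sult4a1). An absolute LFC above 1 left 4 members higher (not Mgst1), 3 of them GST genes, 1 UGT locus (Ugt8a), 0 SULT, NAT or co-substrate genes and 4 genes given by mouse. With Ugt1a genes counted singly, 9 UGT genes were higher, Ugt8a and 8 of the Ugt1a genes. Of Nat1, Nat2 and Nat3, 0 were higher.

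Leaving out 1 mouse at a time gave 13 to 20 members higher, 0 or 1 lower, 12 to 15 GST or MGST genes, 1 or 2 UGT loci, 0 to 2 SULT genes, 0 or 1 NAT genes, 5 to 9 co-substrate genes, 7 to 11 genes given by mouse, an Ugt1a LFC of 0.31 to 0.47 and a Gsto1 LFC of −0.0095 (without humanized mouse 5) to 0.12. The lowest counts came without germ-free mouse 1 for members and genes given by mouse, and without germ-free mouse 3 for co-substrate genes. Without humanized mice 5 and 6, chosen after seeing the data, 2 members were lower (Ugt2b1 and Sult5a1), 1 SULT gene was higher and Gsto1 was at −0.0055. The Ugt1a excess reads summed over genes gave an LFC of 0.28 (edgeR exact test, FDR = 0.0544).

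The replicate numbers refer to different animals and mice of the same number did not deviate together (correlations from −0.13 to 0.09, with 1 of 5 germ-free mice closest to its own number). Number 6 exists only in the humanized group, so with a replicate block humanized mouse 6 adds nothing to the comparison. Such a block also leaves less data to estimate the spread between mice. The replicate block, in a quasi-likelihood fit, left 6 members higher, 6 of them GST or MGST genes, 0 UGT, SULT or NAT genes, 2 co-substrate genes, 3 genes given by mouse, and Ugt1a at 0.40. The cause of these shifts was not tested. Depth limits Sult5a1, Sult6b1, Ugt2b1 and Nat8, which had fewer than 10 reads in some mouse.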
